A study of Mus musculus with 6 samples.

Results

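Transcripts of 10 dendritic cell genes were followed in RNA-seq of mouse CD8T cells after coculture. The genes were Flt3, Zbtb46, Batf3, Xcr1, Clec9a, Cd209a, Siglech, Fscn1, Cacnb3 and Lamp3. Their rows were taken from the deposited table by symbol, and are 10 of the 54532 genes listed. The choice of these symbols was made with earlier results of these data known. The CD8T cells came from mouse spleen, were activated with beads that carry antibodies to CD3 and CD28, and were cocultured for 24 hr. In the control group (n = 3) the cocultured cells received no DB2313, and in the DB2313 group (n = 3) they had been treated with DB2313, a small molecule that inhibits the transcription factor Spi1 (PU.1), for which the methods give 14 nM. The methods describe the cocultured cells as thioglycolate-induced peritoneal macrophages exposed for 12 hr to 10 ng/mL of IFN-γ, whereas the sample labels call them DC cells. Both groups therefore share the bead activation and the coculture, and differ by DB2313. Strain and age of the mice are not given in the sources used here, nor is it said whether the samples came from separate cultures, so p-values measure only the spread between these samples, which may be technical. CD8T cells cultured alone were not analysed here, and in these bulk samples fewer cells of a type and less RNA per cell cannot be told apart.

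Dendritic cells take up antigen, carry it to lymphoid tissue and present it to T cells. The cytokine receptor Flt3 and the transcription factor Zbtb46 are transcribed in the conventional dendritic lineage, but not in that lineage alone. Its type 1 cells, which cross-present antigen to CD8T cells, depend on Batf3 and carry the receptors Xcr1 and Clec9a, whereas Cd209a marks type 2 and monocyte-derived cells and Siglech marks plasmacytoid cells. On maturation, dendritic cells of several kinds switch on Fscn1, Cacnb3 and, in part, Lamp3. Other myeloid cells and activated lymphocytes can transcribe some of these genes, so none of them names a cell type by itself. Spi1 acts in the development of dendritic cells as well as of macrophages.

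The libraries held between 16611975 and 18596217 counts on genes, and 14883 genes passed edgeR's filter on low counts. Markers of the cells that the culture could hold moved between the groups as well, and their part in the results below was not tested. Among all tested genes, 24.6% were lower and 20.8% higher in the DB2313 group at an adjusted p below 0.05. All 20 T cell markers were higher in the DB2313 group, with a summed level of 3762 to 3817 CPM (counts scaled by TMM to a library of 1000000) among control libraries and 5672 to 5717 CPM among DB2313 libraries. Of 17 macrophage markers, 13 were lower, 2 were higher, 1 (Timd4) was too low to test and 1 (Vsig4) was at 0, and the sum ranged from 10903 to 11231 CPM in the control group and from 3755 to 3898 CPM in the DB2313 group. The sum of 10 neutrophil markers ranged from 1653 to 1661 CPM and from 589 to 612 CPM, with 9 lower and 1 (Retnlg) higher. That of 7 myeloid progenitor markers ranged from 628 to 654 CPM and from 1049 to 1070.0 CPM, with 6 higher and 1 (Cd34) lower. Of 8 B cell markers, 4 were higher and 1 was lower, and their sum stayed low, at 48.6 to 53.4 CPM and 64.6 to 65.2 CPM. Retnlg had 4, 4 and 7 counts in the control and 20, 11 and 11 in the DB2313 libraries. Ebf1, a B cell marker called higher, had 9, 13 and 8 counts and 29, 26 and 27. Both passed the filter on low counts only through the DB2313 libraries, so their calls are a description. The most abundant marker of each list was Lyz2 (log2 fold change -1.89), Tcf7 (0.56), S100a9 (-1.72), Mpo (0.95) and Cd79b (0.46). Tcf7 and Cd79b turned to -0.029 and -0.12 when libraries were scaled to the summed T cell markers. Tcf7 is part of that sum, so its value with this scaling follows in part from the scaling itself. With that scaling, 13 macrophage and 9 neutrophil markers were still lower and none was higher. Of the others, 4 progenitor markers were higher and 2 lower, and 3 B cell markers were lower and none higher. Among all tested genes, 11499 were lower and 177 higher with T cell scaling.

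Of the 10 dendritic cell genes, 8 passed the filter on low counts. Clec9a, Cd209a, Cacnb3, Batf3, Zbtb46 and Fscn1 were lower in the DB2313 group, Flt3 was higher, and Xcr1 was not called. An adjusted p below 0.05 over all tested genes (Benjamini-Hochberg, quasi-likelihood test of edgeR) was the call. Among all tested genes, 45.4% were called, 24.6% lower and 20.8% higher. The 3 libraries of one group lay wholly above those of the other for 7 of these 8 genes, against 53.1% of all tested genes. The median log2 fold change of the 8 genes was -0.48, and that of all tested genes was 0.02. Clec9a and Cd209a fell by more than 2-fold, and 5.3% of all tested genes were lower by that much with an adjusted p below 0.05. Cd209a passed the filter only through the control group, where it was high, and a gene that enters in this way had to differ, so these counts are a description.

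The split of calls over all genes depended on the scaling. TMM gave 3096 higher and 3667 lower genes, library size scaling 4931 and 2852, and upper quartile scaling 4319 and 3102. Scaling to the summed T cell markers gave 177 and 11499, and moved the median log2 fold change of all genes by -0.58. The dendritic cell genes kept 6 lower and 1 higher calls with the first 3 scalings, but with T cell scaling all 8 were lower, since Flt3 turned to -0.22 and Xcr1 passed the threshold at -0.82.

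**Figure D1:**
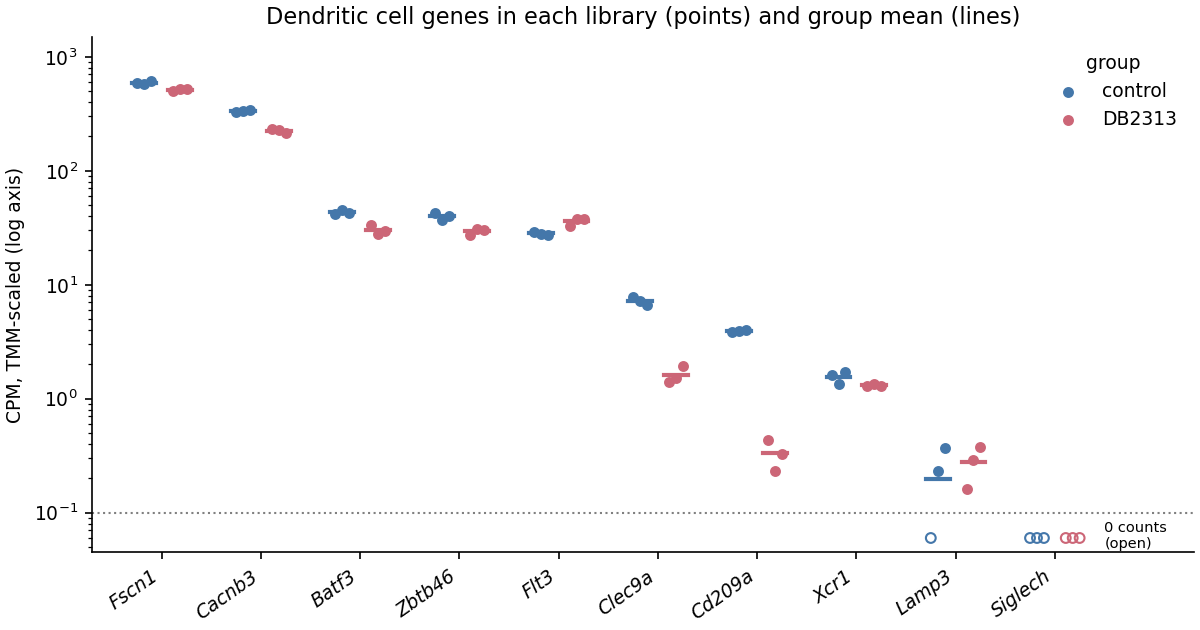
Level of each dendritic cell gene in CPM, on a log axis, in the 3 control and 3 DB2313 libraries; points are libraries, lines are group means, and open points mark libraries with 0 counts. The groups lie apart for Fscn1, Cacnb3, Batf3, Zbtb46, Flt3, Clec9a and Cd209a and overlap for Xcr1 and Lamp3, and Siglech has no count.

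Promoter sequence is shown for 4 of the genes: Cd209a, which fell most, Flt3, the only gene called higher, and Zbtb46 and Batf3, the lineage factors in which a searched motif was found. Capitals mark the motif. The sequences are RefSeq's for GRCm38.p6, in which all 10 genes had an entry, and the first 3 are the 250 bases before the annotated start site, given 5′ to 3′ on the strand of the gene.
Cd209a (chr8:3748985-3749234, minus strand): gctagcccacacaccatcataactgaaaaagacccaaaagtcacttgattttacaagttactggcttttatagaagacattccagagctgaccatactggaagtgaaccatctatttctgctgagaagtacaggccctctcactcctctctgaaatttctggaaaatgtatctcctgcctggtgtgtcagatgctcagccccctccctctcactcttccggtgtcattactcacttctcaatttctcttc
Flt3 (chr5:147400490-147400739, minus strand): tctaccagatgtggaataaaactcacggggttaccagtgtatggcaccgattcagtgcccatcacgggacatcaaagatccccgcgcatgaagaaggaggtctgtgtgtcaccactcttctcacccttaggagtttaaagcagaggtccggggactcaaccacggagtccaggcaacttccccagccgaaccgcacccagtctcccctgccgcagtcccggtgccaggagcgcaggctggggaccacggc
Zbtb46 (chr2:181424389-181424638, minus strand): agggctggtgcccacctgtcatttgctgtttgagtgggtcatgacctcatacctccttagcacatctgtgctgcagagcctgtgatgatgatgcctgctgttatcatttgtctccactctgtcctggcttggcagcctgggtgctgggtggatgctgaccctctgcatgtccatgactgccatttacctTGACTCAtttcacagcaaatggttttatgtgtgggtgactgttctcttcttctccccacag
Batf3, 30 bases around the motif (chr1:191098249-191098278, plus strand): gggtggggggagGAGGAAgcaggggcgggg

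The windows of Cd209a and Flt3 lie outside the gene body as GENCODE annotates it, and share no exon base with another gene. The Zbtb46 window lies inside that gene, in an intron, since RefSeq's start site is downstream of the one in the table. The Batf3 window also lies inside its gene, with 163 of its 250 bases in exons, and the 30 bases shown hold 0 exon bases. GAGGAA, a form of the motif that Spi1 reads, was searched on both strands. It was found in Batf3 alone, 153 bases before its start site, and in 25.9% of all 27025 genes with a promoter. Shorter or other forms that Spi1 and other ETS factors read were not searched, so the windows without GAGGAA may hold them. TGANTCA, read by AP-1 and by Batf factors with their partners, was found in Zbtb46 alone, 61 bases before the start site, and in 7.82% of all genes. GGGNNTTCC, a form of the kappa-B motif, was found in none of the 10 genes and in 5.61% of all genes. No 2 of these matches overlap. A match is a description of letters, and the lack of one says only that these letters are not in the window.

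All 10 genes are protein-coding, and their positions are given as in the table, where they equal those of GENCODE for GRCm38. Zbtb46 and Flt3 were counted at middle levels, with Zbtb46 lower and, except with T cell scaling, Flt3 higher in the DB2313 group. Zbtb46, a zinc finger factor of the conventional dendritic and endothelial lineages (chr2:181387762-181459426), was at 42.9, 37.1 and 39.8 CPM in the control libraries and at 27.4, 30.7 and 30.3 CPM in the DB2313 libraries. The groups did not overlap, and the mean fell from 40.0 ± 2.88 to 29.5 ± 1.84 CPM (SD, n = 3 each). The log2 fold change was -0.44 with a standard error of 0.07 (adjusted p = 2.75e-05).

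Flt3, the receptor for the growth factor Flt3 ligand (chr5:147330741-147400489), was at 29.1, 27.9 and 27.5 CPM in the control libraries and at 32.8, 38.0 and 37.8 CPM in the DB2313 libraries. All DB2313 libraries were above all control libraries, with DB2313 replicate 1 the nearest to them. The mean was 28.2 ± 0.796 CPM among control and 36.2 ± 2.97 CPM among DB2313 libraries (SD, n = 3 each), and the log2 fold change was 0.36 with a standard error of 0.07 (adjusted p = 0.000326). Flt3 was the only one of the 8 tested genes called higher, and its direction turned with T cell scaling (-0.22, adjusted p = 0.00823).

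Flt3 and Zbtb46 differed from each other within every library. In counts, which no scaling between libraries enters, Flt3 was at 0.677, 0.753 and 0.691 times Zbtb46 in the control libraries and at 1.20, 1.24 and 1.25 times Zbtb46 in the DB2313 libraries. The mean ratio was 0.707 ± 0.0402 among control and 1.23 ± 0.0256 among DB2313 libraries (SD, n = 3 each). Zbtb46 was thus above Flt3 in counts in all control libraries and below it in all DB2313 libraries. This and the other ratios below were chosen after the values were seen.

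Of the type 1 genes, Batf3 and Clec9a were lower in the DB2313 group and Xcr1 was not called. Batf3 encodes the AP-1 family factor that type 1 cells need (chr1:191097847-191108945), and was at 42.0, 44.9 and 42.9 CPM in the control libraries. It was at 33.5, 27.9 and 29.4 CPM in the DB2313 libraries, all below the control libraries. The mean fell from 43.2 ± 1.46 to 30.2 ± 2.90 CPM (SD, n = 3 each), and the log2 fold change was -0.52 with a standard error of 0.07 (adjusted p = 2.77e-06). Activated T cells transcribe Batf3 too, and the part of T cell RNA in its level was not tested. The ratio of Batf3 to Zbtb46 counts was 1.09 ± 0.115 among control and 1.03 ± 0.168 among DB2313 libraries (SD, n = 3 each), a difference within the spread between replicates.

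Clec9a, a receptor for actin filaments exposed on dead cells (chr6:129408862-129424763), had 142, 123 and 110 counts in the control libraries and 26, 26 and 36 in the DB2313 libraries. The groups were far apart, with the highest DB2313 library well under the lowest control library. In CPM, the mean fell from 7.24 ± 0.580 to 1.63 ± 0.289 (SD, n = 3 each). The fitted level was 4.43-fold lower, a log2 fold change of -2.15 with a standard error of 0.20 (adjusted p = 3.55e-09), and its size was larger than that of 98.9% of all tested genes. Of the exon bases of Clec9a, 184 overlap exons of Clec1b, its neighbour on the same strand, and 4.02% of the 50-base stretches of Clec9a transcripts also occur in Clec1b. Clec1b, which encodes the receptor CLEC-2, had 75, 67 and 79 counts in the control libraries and 102, 69 and 53 in the DB2313 libraries, with a log2 fold change of -0.05 that was not called (adjusted p = 0.877).

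Xcr1, the receptor for the chemokine Xcl1 that activated CD8T cells release (chr9:123852315-123862029), had 29, 23 and 28 counts in the control libraries. It had 24, 23 and 24 counts in the DB2313 libraries, so the groups overlapped. The mean level was 1.55 ± 0.192 CPM among control and 1.32 ± 0.0267 CPM among DB2313 libraries (SD, n = 3 each). The log2 fold change was -0.24 with a 95% interval from -0.85 to 0.38 (adjusted p = 0.571; exact two-sided permutation p = 0.2), an interval that includes 0 and also -0.52, the change of Batf3. Its ligand gene Xcl1 was at 10.3 ± 0.410 and 11.0 ± 1.91 CPM (SD, n = 3 each) and was not called either (adjusted p = 0.572).

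Type 1 cells carry Clec9a and Xcr1 together, and the ratio of the 2 transcripts was lower in all DB2313 libraries. The ratio of Clec9a to Xcr1 counts was 4.90, 5.35 and 3.93 in the control libraries and 1.08, 1.13 and 1.5 in the DB2313 libraries. The mean ratio was 4.72 ± 0.725 among control and 1.24 ± 0.228 among DB2313 libraries (SD, n = 3 each). No library of one group reached the range of the other. The exact two-sided permutation test of 3 against 3 samples cannot give a p under 0.1, which is the value of Flt3, Zbtb46, Batf3, Clec9a, Fscn1 and Cacnb3 in CPM.

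**Figure D2:**
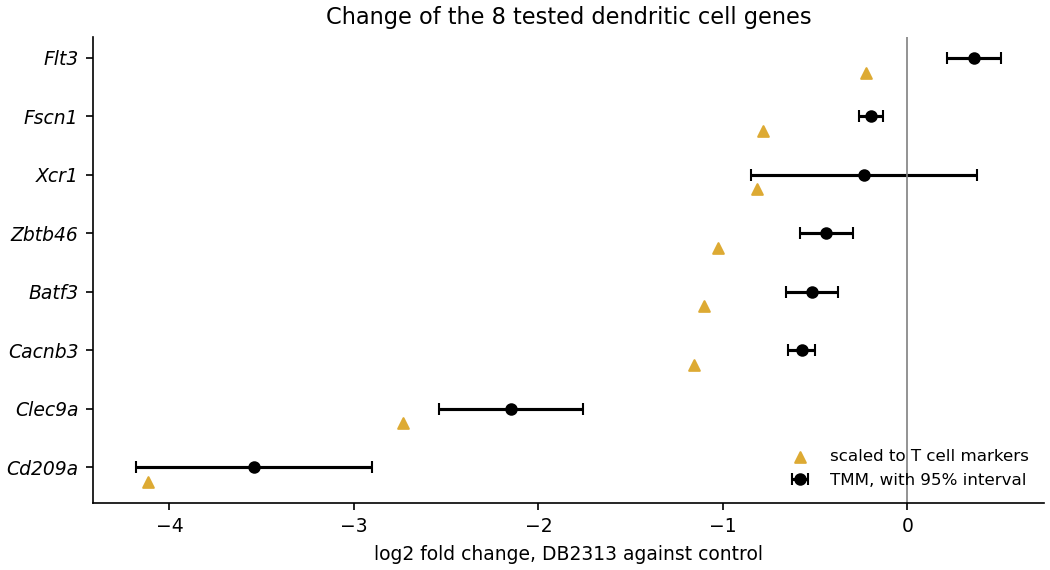
Log2 fold change of the 8 tested genes, DB2313 against control; black points are the TMM-scaled fit with its 95% interval and yellow triangles the same fit scaled to the T cell markers. Cd209a (-3.54) and Clec9a (-2.15) stand far to the left, Flt3 alone is above 0 with TMM, and with T cell scaling all 8 points are below 0.

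Cd209a was the gene with the largest change among the 8. It encodes a C-type lectin related to human DC-SIGN (chr8:3743397-3748984), and had 70, 68 and 66 counts in the control libraries and 8, 4 and 6 in the DB2313 libraries. In CPM these were 3.87, 3.95 and 4.03 in the control group and 0.433, 0.234 and 0.326 in the DB2313 group. The control libraries were close to each other, and all DB2313 libraries were little above the limit that a count of 0 would allow, which is 0.162 to 0.183 CPM for 3 counts per library and covers counting error only. The mean fell from 3.95 ± 0.0759 to 0.331 ± 0.0993 CPM (SD, n = 3 each). The fitted level was 11.6-fold lower, a log2 fold change of -3.54 with a standard error of 0.33. Since the gene entered the test only through the control libraries, this is given as a description, with no p.

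Paralogs of Cd209a were counted as well. Cd209c, a close paralog, had 71, 56 and 70 counts in the control libraries and 10, 3 and 5 in the DB2313 libraries, and a log2 fold change of -3.49 with a standard error of 0.35. It too entered the test only through the control libraries and is given with no p. No 50-base stretch of Cd209a transcripts occurs in a transcript of another gene, Cd209c included. Cd209d had a mean of 0.174 CPM in the control group and no count in the DB2313 group, Cd209e was at 0.0194 and 0.0180 CPM, and Cd209b had no count in any library. These last 3 were too low to test.

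Cd209a also fell relative to Clec9a. The ratio of Cd209a to Clec9a counts was 0.493, 0.553 and 0.600 in the control libraries and 0.308, 0.154 and 0.167 in the DB2313 libraries. The means were 0.549 ± 0.0536 and 0.209 ± 0.0854 (SD, n = 3 each), with no overlap, though the DB2313 ratios rest on 4 to 8 counts of Cd209a.

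**Figure D3:**
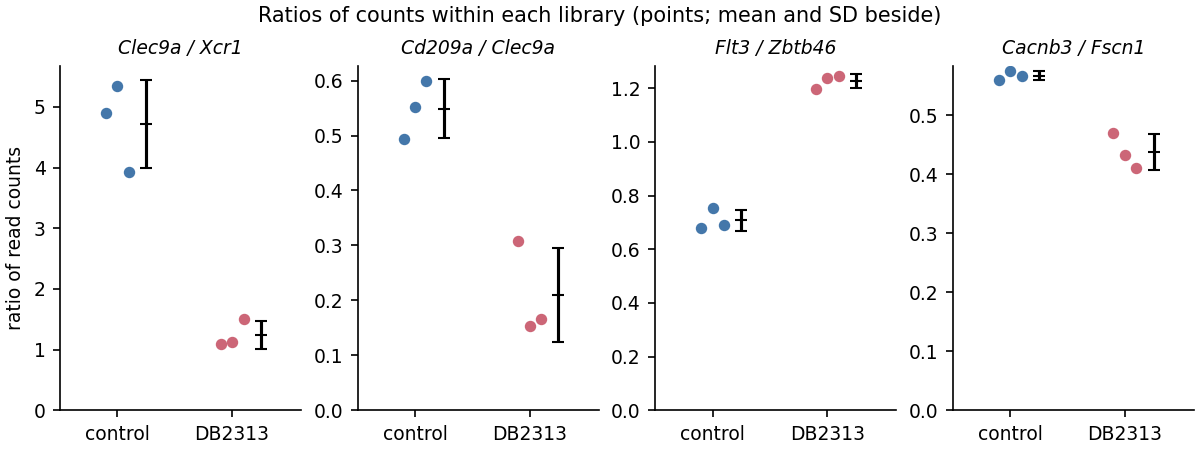
Ratios of read counts between pairs of dendritic cell genes in each library, on linear axes from 0; points are libraries and the bars beside them the mean and SD of 3 libraries. Clec9a / Xcr1, Cd209a / Clec9a and Cacnb3 / Fscn1 are lower in all DB2313 libraries than in any control library, and Flt3 / Zbtb46 is higher.

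The plasmacytoid marker Siglech, a receptor of the Siglec family (chr7:55768178-55778925), had 0 counts in all 6 libraries. At these depths that allows up to 0.162 to 0.183 CPM per library. Lamp3, a lysosomal membrane protein of mature dendritic cells (chr16:19653378-19706375), had 0, 4 and 6 counts in the control libraries and 3, 5 and 7 in the DB2313 libraries. The groups overlapped (exact two-sided permutation p = 0.6), and at these counts no difference was detectable. Part of the Lamp3 counts is uncertain, since 5.11% of its 50-base stretches also occur in Ppid or in genes that share its sequence.

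The maturation genes Fscn1 and Cacnb3 were the most abundant of the 10, and both were lower in the DB2313 group. Fscn1 encodes fascin, which bundles actin in the dendrites of mature cells (chr5:142960343-142973185), and was at 586, 582 and 609 CPM in the control libraries and at 499, 524 and 527 CPM in the DB2313 libraries. The groups did not overlap, and the mean fell from 592 ± 14.2 to 516 ± 15.3 CPM (SD, n = 3 each). The log2 fold change was -0.20 with a standard error of 0.03 (adjusted p = 3.09e-05), and its size was larger than that of 44.6% of all tested genes. Its value was -0.10 with library size scaling and -0.13 with upper quartile scaling, still called (adjusted p = 0.0109 and 0.0025).

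Cacnb3 encodes a beta subunit of voltage-gated calcium channels (chr15:98630840-98644529). It was at 328, 335 and 344 CPM in the control libraries and at 235, 226 and 216 CPM in the DB2313 libraries, with a wide gap between the groups. The mean fell from 336 ± 8.01 to 226 ± 9.47 CPM (SD, n = 3 each), and the log2 fold change was -0.57 with a standard error of 0.04 (adjusted p = 5.29e-12). Relative to Fscn1, Cacnb3 was lower in every DB2313 library than in any control library. The ratio of Cacnb3 to Fscn1 counts was 0.560, 0.574 and 0.566 in the control libraries and 0.471, 0.432 and 0.410 in the DB2313 libraries, with means of 0.567 ± 0.00731 and 0.438 ± 0.0307 (SD, n = 3 each). Neither gene shares a 50-base stretch with another gene.

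Levels of different genes were compared per length, in RPKM (CPM divided by the length in kilobases that the table gives). In the control group the order from the highest was Fscn1 (197), Cacnb3 (83.7), Batf3 (27.1), Zbtb46 (4.70), Flt3 (4.56), Cd209a (2.496), Clec9a (2.20), Xcr1 (0.348) and Lamp3 (0.0594), with Siglech at 0. Zbtb46 and Flt3 overlapped between libraries, as did Lamp3 and Siglech, and the other neighbours did not. In the DB2313 group the first 3 kept their places, at 171, 56.3 and 18.9 RPKM. Flt3 (5.86) then stood above Zbtb46 (3.46), and Cd209a (0.209) stood below Clec9a (0.494) and Xcr1 (0.295), ahead of Lamp3 (0.0829) and Siglech. No neighbours overlapped in the DB2313 group, but the places of Lamp3 and Cd209a rest there on 3 to 7 and 4 to 8 counts. In DB2313 replicate 1, Lamp3 was at 0.162 CPM, the limit that a count of 0 would allow. That library does not tell Lamp3 from Siglech. The spread of RPKM between libraries within a group was small beside the span from Fscn1 to Lamp3.

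Related genes were taken from 6 lists of 94 genes in all, of which 88 were tested, with 58 lower, 9 higher and 21 not called. Their median log2 fold change was -0.47. Among all 14883 tested genes, 24.6% were lower and 20.8% higher, and with T cell scaling 11499 were lower and 177 higher. The counts of every list below are to be read beside these. Beside Zbtb46 and Batf3, the other dendritic cell transcription factors were mostly lower, with 12 of 16 lower, 1 higher and 3 not called, and all 16 lower with T cell scaling. Irf8, which type 1 and plasmacytoid cells need, fell from 333 ± 4.79 to 157 ± 2.99 CPM, and Irf4, which acts in type 2 cells, from 117 ± 1.75 to 52.0 ± 2.49 CPM (SD, n = 3 each). Their log2 fold changes were -1.08 and -1.17, against -0.52 for Batf3. Zeb2, a repressor of the type 1 fate, was at -1.02, and Ikzf1, which encodes Ikaros, was at 0.27 but at -0.31 with T cell scaling. Spi1, the target of DB2313, fell from 286 ± 6.74 to 155 ± 6.19 CPM (SD, n = 3 each), a log2 fold change of -0.88; it was named because it is the target.

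Of 12 further genes of type 1 cells, 7 were lower, 1 was higher and 4 were not called, with a median log2 fold change of -0.76. Clec9a had company among these in Tlr11, a sensor of parasite profilin (-1.92), Wdfy4, needed for cross-presentation (-1.68), and Cd24a, a surface glycoprotein (-1.41). Naaa, a lysosomal lipid hydrolase and the most abundant of the list, fell from 352 ± 3.57 to 167 ± 6.30 CPM (SD, n = 3 each). The medians of the macrophage and neutrophil markers were below 0 too, at -0.84 and -1.63. The part of other cells in the levels of the type 1 list was not tested. Beside Xcr1, Itgae, Gcsam, Clnk and Snx22 were not called. The 1 higher gene was Cadm1, an adhesion molecule, at 1.83 ± 0.374 and 3.15 ± 1.37 CPM (SD, n = 3 each; adjusted p = 0.0308), named after its value was seen. No gene of the list was higher by DESeq2, with T cell scaling, or when DB2313 replicate 3 or control replicate 1 or 2 was left out. With library size or upper quartile scaling, 2 were higher.

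Of 12 further type 2 genes, 9 were tested, with 7 lower, 1 higher and 1 not called, and a median of -1.08. Beside Cd209c, the largest changes were those of Clec4a4, an inhibitory lectin, and Tnip3, an inhibitor of NF-kappa-B signalling (-2.04). Clec4a4 was at 1.11 ± 0.202 and 0.131 ± 0.0665 CPM (SD, n = 3 each), and entered the test only through the control libraries, as Cd209c did. Sirpa, the receptor for CD47 that type 2 cells share with macrophages, fell from 430 ± 6.55 to 203 ± 5.23 CPM (SD, n = 3 each). Clec10a, a galactose-binding lectin, moved against the list, from 38.8 ± 1.16 to 87.8 ± 3.57 CPM (SD, n = 3 each), a log2 fold change of 1.18, and was named after its value was seen. The list held 1 higher and 7 lower genes with each scaling tried, but 5 lower genes with a filter of at least 10 counts in every sample, which leaves out Cd209c and Clec4a4.

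The plasmacytoid list, to which Siglech belongs by function, moved in both directions. Of 11 tested genes, 6 were higher and 4 were lower with a median of 0.45, but 2 were higher and 6 were lower with T cell scaling, and 6 were higher and 2 lower with library size or upper quartile scaling. Irf7, the factor that drives type I interferon, rose from 375 ± 14.8 to 581 ± 15.4 CPM (SD, n = 3 each), a log2 fold change of 0.63 that was 0.05 and not called with T cell scaling. Cox6a2, a subunit of cytochrome oxidase, was at 1.22. Cd300c, a paired receptor, and Pld4, a nuclease of endosomes, were at -1.19 and -0.95. Irf7 is induced by interferon in most cells and Pld4 is found in other myeloid cells, so these genes do not mark plasmacytoid cells by themselves.

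The maturation list moved in the same direction as Fscn1 and Cacnb3. Of 22 tested genes, 18 were lower, none was higher and 4 were not called, with a median of -0.45. With T cell scaling 22 were lower, as were 11499 of all 14883 tested genes. Ccl22, a chemokine for Ccr4 and the most abundant of the list, fell from 2187 ± 12.8 to 1186 ± 15.4 CPM (SD, n = 3 each). Pdcd1lg2, a ligand of PD-1, changed most (-1.99), and Il12b, the p40 chain of interleukin 12 and 23, was at -0.82. Cd80, Traf1, Il15ra and Slco5a1 were not called. Fscn1, at -0.20, thus changed less than the median of its list, and Cacnb3, at -0.57, more.

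The last list held ligands, adaptors and relatives of the 10 genes. Of 18 tested, 10 were lower, none was higher and 8 were not called, with a median of -0.60. With T cell scaling 17 were lower, as were 11499 of all 14883 tested genes. Flt3l, the ligand gene of Flt3, was at 29.0 ± 1.98 and 32.7 ± 1.09 CPM (SD, n = 3 each) and missed the threshold (log2 fold change 0.17, adjusted p = 0.0551). Among relatives, Batf2 fell (-1.17) as Batf3 did, whereas Batf was not called (0.05). Siglece, a relative of Siglech carried by other myeloid cells, fell from 6.99 ± 1.68 to 1.51 ± 0.423 CPM (SD, n = 3 each). Csf2ra, a chain of the receptor for GM-CSF, was at -1.01, and Lamp1, the most abundant lysosomal relative of Lamp3, at -0.59. The calcium channel subunits Cacnb1, Cacnb2 and Cacnb4 were not called, whereas Cacnb3 was lower (-0.57). Cacnb2 had only 13 to 26 and Cacnb4 14 to 29 counts per library. Cacnb4 was at -0.41 with an interval from -1.14 to 0.32, which includes the change of Cacnb3. The interval of Cacnb1 (-0.21 to 0.19) did not include it. That of Cacnb2 (-0.55 to 0.91) ended too near the change of Cacnb3 for an approximate interval to decide. Whether the fall was particular to Cacnb3 was not tested.

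**Figure D4:**
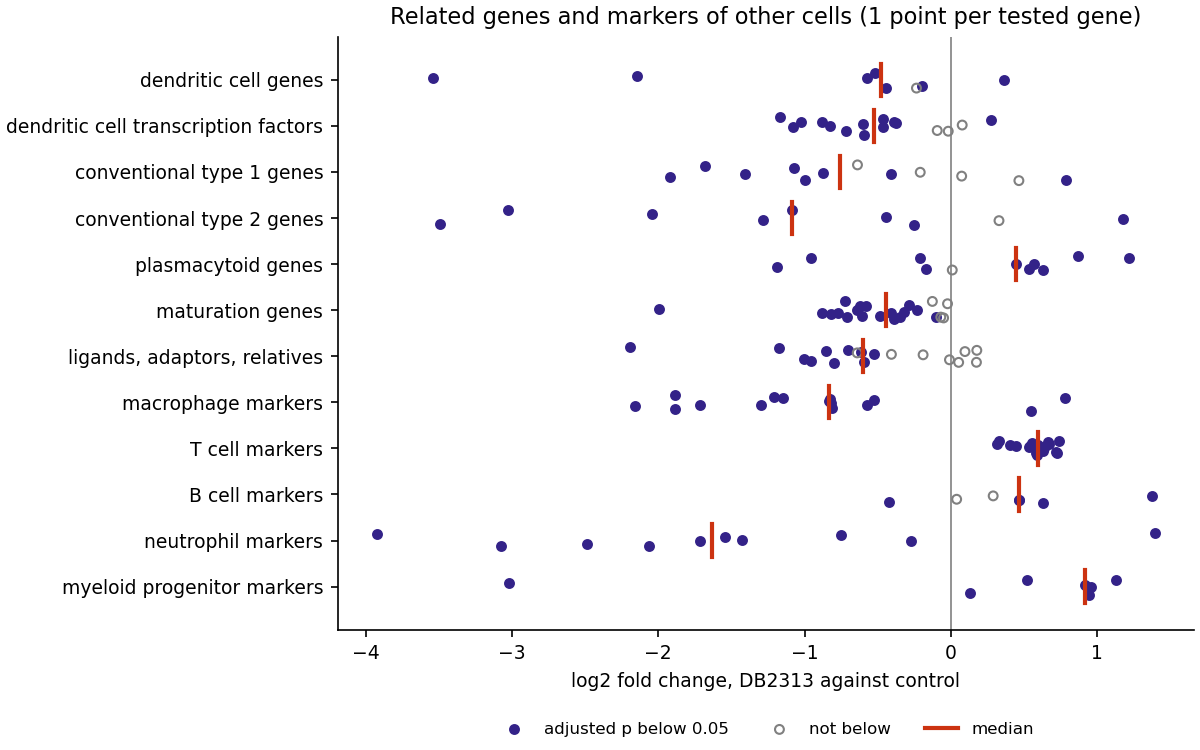
Log2 fold change, DB2313 against control, of each tested gene in the dendritic cell genes, the 6 related lists and the 5 marker lists; filled points have an adjusted p below 0.05 and red bars are medians. The conventional, maturation, transcription factor, macrophage and neutrophil medians are below 0, and the plasmacytoid, T cell, B cell and progenitor medians above 0 with TMM, before the shift of -0.58 that T cell scaling gives.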

How the data were processed

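RNA of 3 control and 3 DB2313 samples was sequenced by the authors on an Illumina HiSeq, and raw counts per gene were deposited without normalization. The paper names LifeScope for alignment and counting, whereas the submitters' processing notes name CASAVA 1.8, HISAT2 2.0.5 and featureCounts 1.5.0-p3. Build, annotation and strand setting are not given in the sources used here. Of 54409 genes shared with GENCODE on GRCm38, 98.3% had the same coordinates. Reads that overlapping genes share may have been assigned to either or to none.

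From these counts, 14883 genes were tested with edgeR 4.0.16 in R 4.3.3 (filterByExpr, TMM, glmQLFit and glmQLFTest), with adjusted p below 0.05 as the call. The fit used all 6 samples and no covariate. The script was checked on simulated counts. Chi-square values per gene between replicates were 2.46 to 3.96, above counting noise, so no 2 libraries were merged as one deposited 2 times; this does not show that they came from separate cultures. The common biological coefficient of variation was 4.67%. Standard errors were derived from the edgeR fit, as the absolute log2 fold change divided by the square root of the quasi-likelihood F statistic. The 95% intervals are 1.96 such standard errors to each side and are approximate. Exact permutation tests used SciPy 1.17.1. Without molecular identifiers, reads are not independent molecules.

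The 10 genes, the lists and the motifs were chosen with earlier results of these data known. From each related list, the text names the most abundant gene and the 3 largest changes whose higher group reached 1 CPM, and from each marker list the most abundant gene. Other genes named from a list were chosen after their values were seen. Cd68 stands in both the last related list and the macrophage list. Alternatives were DESeq2 1.42.0, 3 other scalings, 2 other filters, a replicate block, leaving out each sample and a threshold on the fold change.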

Additional observations from a re-analysis of the deposited data

How the results depend on the processing

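Of 465 refits of 36 named genes, 459 changed neither the direction nor the call. These 36 are the 8 tested dendritic cell genes and the list genes named by the rule above. That rule takes the largest called changes and the most abundant genes from these same data. Their stability was therefore in part fixed in advance, and the 459 are a description that does not extend to other genes. Genes named otherwise, such as Cadm1, Clec10a, Flt3l and Spi1, were not among them. Scaling to the T cell markers turned 4 of the 36 genes, Flt3 (-0.22), Ikzf1 (-0.31), Tcf7 (-0.029) and Cd79b (-0.12). Tcf7 is itself part of the sum that sets this scaling. The same scaling brought Xcr1 past the threshold and took Irf7 below it. With that scaling, 177 genes were higher and 11499 lower, none of the dendritic cell genes was higher (0), and 3 genes of the related lists were. Library size scaling gave 4931 higher genes. An absolute log2 fold change above 1 left 204 higher and 789 lower genes, 0 higher and 2 lower dendritic cell genes, and 2 higher and 17 lower related genes, by its own construction. Leaving out each sample in turn gave 2558 to 2894 higher and 3279 to 3516 lower genes, always 1 higher and 6 lower dendritic cell genes, and 8 to 10 higher and 54 to 58 lower related genes. Single calls of lists were lost without some libraries: the 1 higher neutrophil marker without control replicates 1 or 2 or DB2313 replicate 1, and the 1 lower B cell marker without control replicates 1 or 2 or DB2313 replicate 2 (0 each); without control replicate 3, 1 gene of the ligands, adaptors and relatives was higher. At least 10 counts in every sample removed Cd209a, Cd209c and Clec4a4 from the test and left 5 lower dendritic cell genes, 5 lower type 2 genes and 56 lower related genes.

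The labels number the samples 1 to 3 in each group, and no source says that a number pairs them; deviations of same-numbered samples correlated at 0.014, -0.004 and 0.019. With the replicate block, 2912 genes were higher and 3525 lower, with 1 higher and 6 lower dendritic cell genes, and it changed the call of none of the 36 named genes. Depth limits Lamp3, Siglech and Xcr1 most, with 29 counts or fewer in every library.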
